A study of Mus musculus with 2 samples.

Results

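The mitosis and kinetochore genes are 42 mouse genes whose products start mitosis, build the spindle, attach chromosomes to it, check those attachments and divide the cell. They were taken as a fixed list of gene symbols and found in the deposited gene tables by identifier, through the GENCODE M21 annotation of the mouse assembly mm10 (GRCm38). All 42 were found among 42462 matched mouse genes, of which 21474 are annotated as protein-coding. The rule that names them uses no measured value, but the list was chosen with earlier results of these data known. The samples are whole urinary bladders of 2 newborn pups of the B6NCrl strain, a C57BL/6N substrain, with no mutation or treatment named, taken at a labelled age of 0 days from the litter of 1 pregnant female. Sex was not recorded. Total RNA was sequenced with 1 library per pup from 10 ng of RNA with spike-in RNAs added. Both libraries belong to 1 group, so the study holds no contrast between conditions. What can be described is the level of each gene and how far 2 littermates lay apart.

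Mitosis is driven by the kinase Cdk1 bound to cyclin A or cyclin B, and it ends when the anaphase-promoting complex, switched on by Cdc20, marks cyclin B and securin for destruction. In between, the kinetochore, a protein plate built on centromeres that carry the histone variant CENP-A, holds microtubules of the spindle, and the spindle checkpoint delays anaphase until every kinetochore is attached. The genes for these proteins are transcribed mainly in G2 and M phase, so their RNA in a tissue follows the dividing cells in it. In a bladder around birth, smooth muscle, connective tissue and urothelium are all still growing. In RNA from a whole organ, fewer dividing cells and less RNA per dividing cell cannot be told apart.

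Genes of this kind are known for promoters without a TATA box that hold CCAAT boxes, read by the factor NF-Y, and a cell cycle genes homology region (CHR), read by the MuvB complexes. The promoter sequences of 34 of the 42 genes were available from RefSeq on GRCm38.p6, as the 250 bases upstream of the start annotated by RefSeq, which can differ from the GENCODE start. The sequences below are shown because they are the 4 most abundant of these genes that hold both kinds of motif. They are written 5′ to 3′ on the gene's own strand, in lower case, with capitals marking CCAAT boxes (CCAAT or its reverse complement ATTGG) and CHR matches (TTTGAA, its reverse complement TTCAAA, or TTTAAA). The windows are chr10:69352913-69353162 on the minus strand for Cdk1, chr2:164769679-164769927 on the plus strand for Ube2c, chr5:30666636-30666806 on the plus strand for Cenpa and chr4:118437344-118437593 on the minus strand for Cdc20. The Ube2c and Cenpa windows are printed over 249 and 171 of their 250 bases, so that no more than 30 bases inside the GENCODE gene are shown.
Cdk1: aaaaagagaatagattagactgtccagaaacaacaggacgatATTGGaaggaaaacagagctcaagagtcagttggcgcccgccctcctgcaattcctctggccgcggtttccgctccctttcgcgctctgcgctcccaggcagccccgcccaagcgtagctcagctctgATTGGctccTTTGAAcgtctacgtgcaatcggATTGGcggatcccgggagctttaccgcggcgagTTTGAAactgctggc
Ube2c: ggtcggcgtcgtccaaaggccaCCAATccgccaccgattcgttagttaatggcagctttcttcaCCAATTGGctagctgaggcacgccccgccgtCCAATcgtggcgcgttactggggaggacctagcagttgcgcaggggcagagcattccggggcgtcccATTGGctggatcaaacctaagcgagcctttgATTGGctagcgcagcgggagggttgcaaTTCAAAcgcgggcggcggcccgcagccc
Cenpa: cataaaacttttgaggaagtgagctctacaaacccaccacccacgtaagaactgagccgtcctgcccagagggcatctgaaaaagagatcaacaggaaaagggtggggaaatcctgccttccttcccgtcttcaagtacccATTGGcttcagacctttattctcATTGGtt
Cdc20: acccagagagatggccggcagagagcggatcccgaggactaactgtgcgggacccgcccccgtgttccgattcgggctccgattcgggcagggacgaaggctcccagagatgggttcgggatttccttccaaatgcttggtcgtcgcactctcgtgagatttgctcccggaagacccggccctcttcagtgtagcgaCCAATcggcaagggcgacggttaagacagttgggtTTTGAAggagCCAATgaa
The Cdk1 window holds CCAAT boxes that begin 208, 80 and 48 bases before the start, and CHR matches at 71 and 15 bases. Ube2c has 6 CCAAT matches, a pair of which overlap on opposite strands at 186 and 183 bases, and a CHR match 29 bases before the start. Cenpa has CCAAT boxes at 109 and 86 bases and a CHR match at 17 bases, beyond the stretch printed. The Cdc20 promoter has CCAAT boxes at 53 and 8 bases and a CHR match between them at 18 bases. By the GENCODE annotation, the last 26 bases of the Cdk1 window, 31 of Ube2c, 109 of Cenpa and 9 of Cdc20 lie inside the gene. Those stretches hold the Cdk1 match at 15 bases, the Ube2c CHR match, all Cenpa matches and the Cdc20 box at 8 bases.

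Across the 34 genes, 24 had a CCAAT box upstream of the RefSeq start (70.6%), against 34.5% of the 27025 genes with a RefSeq promoter. At least 2 CCAAT boxes were present in 17 of the 34 genes (50.0%), against 10.5% of all promoters. A CHR match was present in 14 (41.2%), against 25.5%, and both motifs in 12 (35.3%), against 9.0%. When the window was extended to the 300 bases of the table, which reach 50 bases past the start, 28 genes held a CHR match (82.4%), against 27.8% of all promoters, while the CCAAT count stayed at 24 genes (70.6%), against 37.9%. This wider window was chosen after the data were seen. Both motifs were searched on both strands, a match to 5 or 6 letters occurs often by composition alone, and the matches describe letters in a window and no binding.

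The libraries held 32564563 expected counts in pup 2 and 43653931 in pup 1. An expected count is an estimated number of reads for a gene, and TPM, the level used below, is that number per transcript length, scaled to the same total in each library. Bladder markers were abundant in both pups: 8 of 8 smooth muscle genes, 6 of 6 superficial and 6 of 6 basal urothelial genes reached 1 TPM in each. The smooth muscle genes summed to 62044 TPM in pup 2 and 67305 TPM in pup 1, the superficial urothelial genes to 7166 TPM in pup 2 and 7362 TPM in pup 1, and the basal ones to 1185 TPM in pup 2 and 1180 TPM in pup 1. The pups are separate animals with 1 library each, so no test across animals could be run, and the intervals below cover counting error only.

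All 42 genes reached 1 TPM in both pups, as did 58.5% of protein-coding genes. Their levels were moderate, with a median of 10.98 TPM in pup 2 and 16.6 TPM in pup 1. They ran from 2.88 TPM (Kif4) to 81.3 TPM (Cdk1) in pup 2 and from 4.49 TPM (Kif4) to 107 TPM (Cdk1) in pup 1. Among the 12568 protein-coding genes detected in both pups, the 42 spread from percentile 16.3 to percentile 88.9 of mean TPM, with a median percentile of 49.0. In 22 genes the level was 10 TPM or more in both pups, and in 11 it was below 10 TPM in both. The order of the genes was nearly the same in the pups, with a Spearman rho of 0.982 across the 42 genes, which share both libraries and are not independent of each other. The same 5 genes led in both: Cdk1, Ube2c, Pttg1, Cenpa and Birc5.

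**Figure D1:**
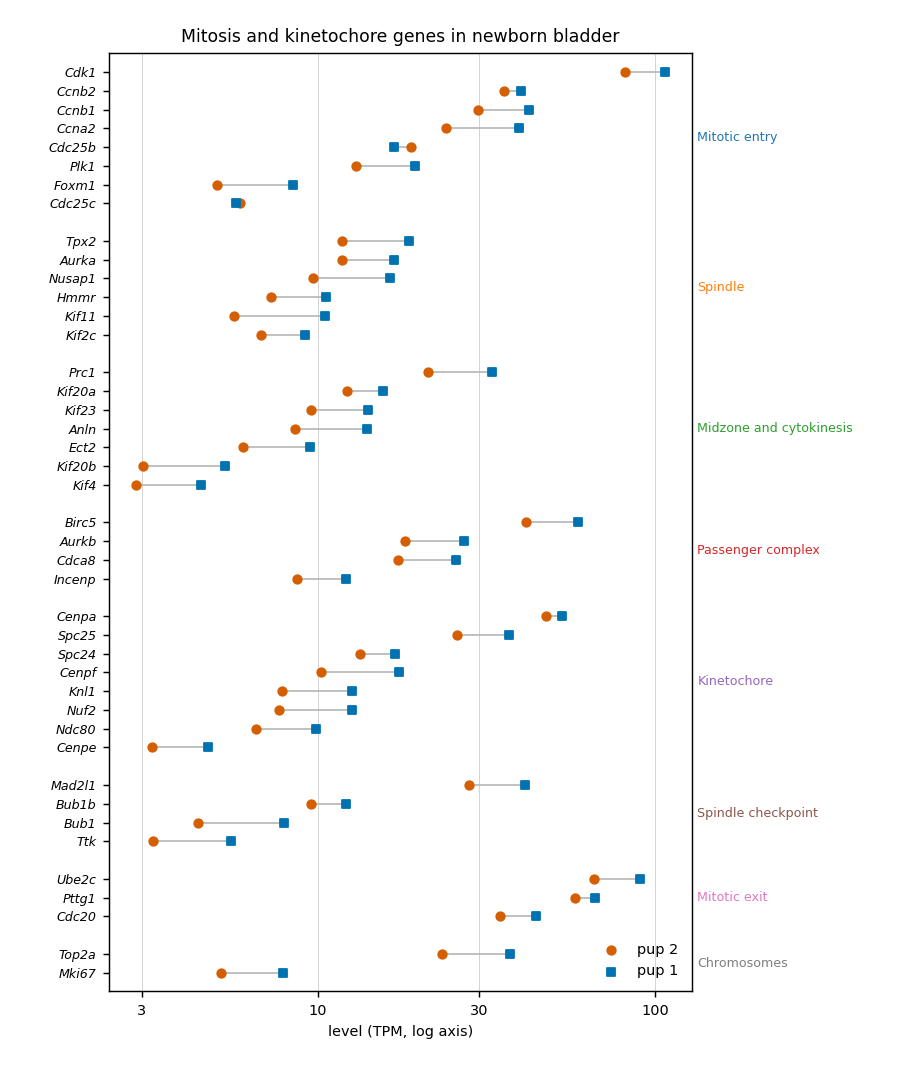
Level of each of the 42 genes in TPM on a log axis, grouped by role, with pup 2 as orange circles and pup 1 as blue squares joined by a line; each point is 1 library. Pup 2 lies left of pup 1 for every gene but Cdc25b and Cdc25c, and Cdk1 lies highest in both pups at 81.3 and 107 TPM.

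The genes were lower in pup 2 than in pup 1 nearly throughout. Scaled for library size with TMM factors, 40 of the 42 had a lower count in pup 2, against 54.8% of the 12688 genes whose mean expected count reached 100. In 37 of 42 the whole 95% counting interval of the log2 ratio of pup 2 over pup 1 lay under 0, against 30% of all genes tested. A count at least 1.2-fold lower was found in 36 of 42, against 11.9%, and one at least 1.5-fold lower in 11 of 42, against 1.66%; by ratios of TPM the last count was 18 of 42, against 2.97%. None of the 42 differed 2-fold. The median log2 ratio was -0.47 over the 42 genes and -0.02 over all genes tested. Summed over the 42 genes, the expected counts were 34648 in pup 2 and 62557 in pup 1, a log2 ratio of -0.45 after scaling (-0.47 to -0.43). Their share of all TPM was 0.0769% in pup 2 and 0.106% in pup 1.

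By scaled counts, the 11 genes at least 1.5-fold lower in pup 2 were Kif11, Bub1, Kif20b, Top2a, Ttk, Nusap1, Ccna2, Nuf2, Prc1, Anln and Ect2, with folds from 1.76 (Kif11) to 1.51 (Ect2). Kif4 and Aurkb lay just short of this fold at 1.49 each, and Spc24 lay just short of the smaller one at 1.19. Beside Spc24, the genes that did not reach 1.2-fold were Ccnb2, Pttg1, Cenpa, Cdc25b and Cdc25c, and in all of these but Cdc25b the counting interval included 0. Mean counts ran from 287 for Cdc25c to 2768 for Top2a, and the authors' posterior SD, which measures how surely reads were assigned to a gene, was at most 1.19% of the count.

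**Figure D2:**
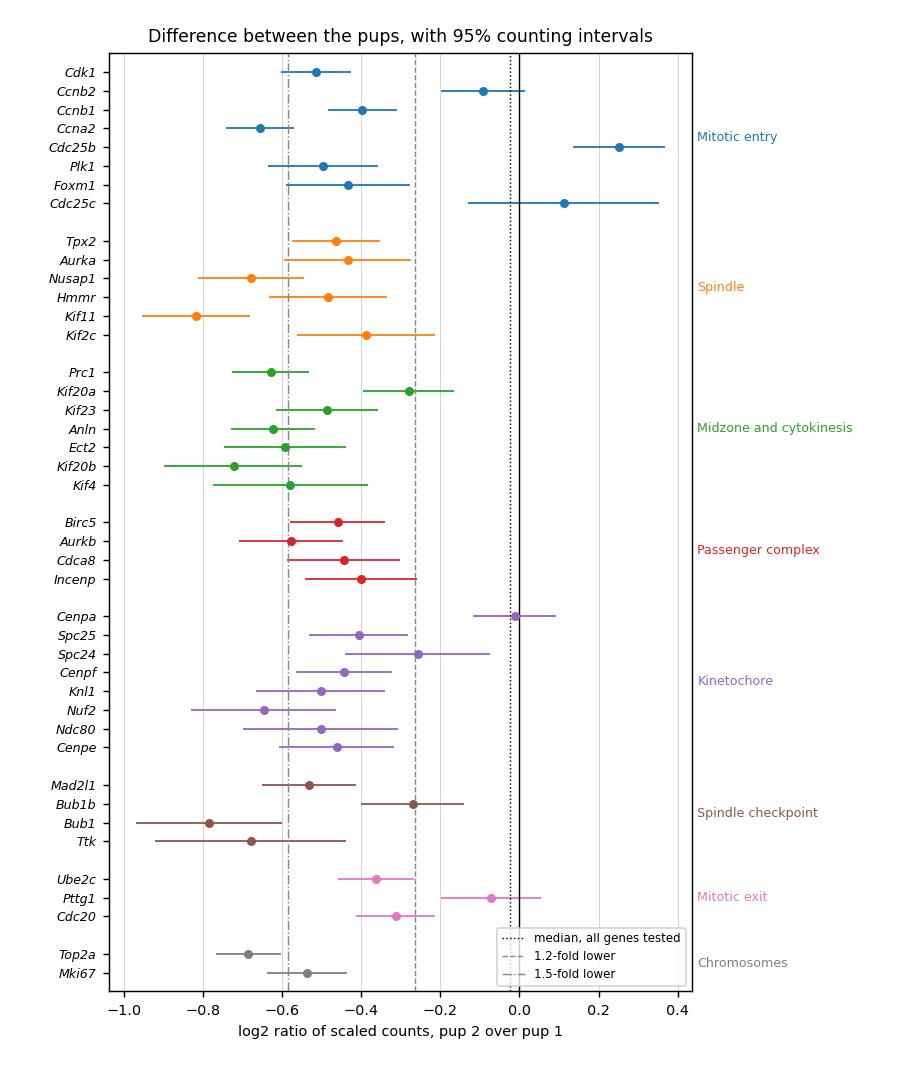
Log2 ratio of TMM-scaled expected counts, pup 2 over pup 1, for the 42 genes by role, with bars for the 95% counting interval of 1 library per pup. The dotted line marks the median of all 12688 genes tested at -0.02, and the dashed and dash-dotted lines mark genes 1.2-fold and 1.5-fold lower in pup 2; Kif11 lies furthest left at -0.82 and Cdc25b furthest right at 0.25.

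Among the genes that start mitosis, Cdk1 (chromosome 10, 69335146 to 69352938, minus strand), the catalytic kinase, was the most abundant of all 42 genes. It had 81.3 TPM in pup 2 and 107 TPM in pup 1, a mean of 94.1 ± 18.1 TPM (SD, n = 2) and a log2 ratio of -0.51 (-0.60 to -0.43). Of its cyclin partners, Ccna2, cyclin A2, which also acts in S phase, had 23.9 TPM in pup 2 and 39.5 TPM in pup 1, with a log2 ratio of -0.66. Ccnb1, cyclin B1, had 29.9 TPM in pup 2 and 42.3 TPM in pup 1. Ccnb2, cyclin B2, differed little, with 35.5 TPM in pup 2 and 40.0 TPM in pup 1 and a log2 ratio of -0.09 (-0.20 to 0.01). The intervals of Ccnb1 (-0.49 to -0.31) and Ccnb2 did not overlap, so these cyclin B genes lay apart by more than counting error, and Ccnb2 stood above Ccnb1 in pup 2 (1.19 times its TPM) and just under it in pup 1 (0.945 times).

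The phosphatases that remove the inhibitory phosphates from Cdk1 were the exception among the 42 genes. Cdc25b (chromosome 2, 131186949 to 131198497, plus strand) had 18.8 TPM in pup 2 and 16.8 TPM in pup 1, and its log2 ratio of 0.25 (0.14 to 0.37) was the only one with an interval wholly above 0. Its rank among the 42 genes was 14 in pup 2 and 21 in pup 1, the largest shift in the list. Cdc25c had 5.86 TPM in pup 2 and 5.73 TPM in pup 1, with a log2 ratio of 0.11 (-0.13 to 0.35) that counting error spans. Plk1, the kinase that promotes Cdk1 activation and centrosome maturation, had 13.0 TPM in pup 2 and 19.3 TPM in pup 1. Foxm1, a transcription factor of G2 and M phase genes, had 5.03 TPM in pup 2 and 8.42 TPM in pup 1. Of the 8 entry genes, 6 were lower in pup 2 and 5 by at least 1.2-fold.

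All 6 genes of spindle assembly were at least 1.2-fold lower in pup 2. Kif11 (chromosome 19, 37376403 to 37421859, plus strand), the Eg5 motor that pushes spindle poles apart, had the largest difference of the 42 genes, with 5.62 TPM in pup 2 and 10.5 TPM in pup 1 and a log2 ratio of -0.82 (-0.95 to -0.68). Aurka, the Aurora A kinase of the spindle poles, had 11.8 TPM in pup 2 and 16.8 TPM in pup 1. Tpx2, which activates Aurora A on microtubules, stood close to it with 11.8 TPM in pup 2 and 18.6 TPM in pup 1, so that its level was 0.997 times that of Aurka in pup 2 and 1.11 times in pup 1. Nusap1, a microtubule-bundling protein, had 9.64 TPM in pup 2 and 16.4 TPM in pup 1. Hmmr, a spindle protein also known as a hyaluronan receptor, had 7.25 TPM in pup 2 and 10.6 TPM in pup 1. Kif2c, a kinesin that shortens microtubules at centromeres, had 6.79 TPM in pup 2 and 9.17 TPM in pup 1.

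The 7 genes of the spindle midzone and cytokinesis were likewise all at least 1.2-fold lower in pup 2, 4 of them by at least 1.5-fold, and their median log2 ratio was -0.59. Prc1, which cross-links the antiparallel microtubules of the midzone, was the most abundant with 21.2 TPM in pup 2 and 32.9 TPM in pup 1. Kif4, the chromokinesin that works with Prc1, was the least abundant of the 42 genes with 2.88 TPM in pup 2 and 4.49 TPM in pup 1. The kinesin-6 motors lay at different levels: Kif20a had 12.2 TPM in pup 2 and 15.6 TPM in pup 1, and Kif23, a subunit of centralspindlin, had 9.52 TPM in pup 2 and 14.1 TPM in pup 1. Kif20b was lower, with 3.03 TPM in pup 2 and 5.29 TPM in pup 1. Within this family the difference between the pups was not uniform, at log2 ratios of -0.28 (-0.40 to -0.17) for Kif20a and -0.72 (-0.90 to -0.55) for Kif20b, whose intervals did not overlap. Anln, the anillin scaffold of the contractile ring, had 8.57 TPM in pup 2 and 14.0 TPM in pup 1. Ect2, the exchange factor that activates RhoA at the cleavage site, had 5.99 TPM in pup 2 and 9.49 TPM in pup 1.

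The 4 genes of the chromosomal passenger complex, which corrects wrong attachments at centromeres and then moves to the midzone, differed between the pups by about the same amount. Aurkb, the Aurora B kinase of the complex, had 18.1 TPM in pup 2 and 27.0 TPM in pup 1. Birc5, survivin, which brings the complex to centromeres, had 41.4 TPM in pup 2 and 58.9 TPM in pup 1. Cdca8, borealin, had 17.3 TPM in pup 2 and 25.6 TPM in pup 1, and Incenp, the scaffold that binds and activates Aurora B, had 8.69 TPM in pup 2 and 12.1 TPM in pup 1. Their log2 ratios ran from -0.58 (Aurkb) to -0.40 (Incenp), with intervals that all overlapped. The proportions of their RNAs were therefore close in the pups: relative to Aurkb, Birc5 was at 2.29 times in pup 2 and 2.18 times in pup 1, Cdca8 at 0.954 times in pup 2 and 0.947 times in pup 1, and Incenp at 0.480 times in pup 2 and 0.449 times in pup 1.

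At the kinetochore, 8 of 8 genes were lower in pup 2, Cenpa only marginally so, and 6 by at least 1.2-fold. Cenpa (chromosome 5, 30666777 to 30674830, plus strand), the centromeric histone H3 variant, was the most abundant of them and almost level between the pups, with 47.5 TPM in pup 2 and 52.9 TPM in pup 1 and a log2 ratio of scaled counts of -0.01 (-0.12 to 0.09), a sign that turned under 2 other scalings. The Ndc80 complex, the main microtubule coupler, has the subunits Ndc80, Nuf2, Spc24 and Spc25 in equal numbers, but the RNA levels of its genes were unequal. Ndc80 had 6.56 TPM in pup 2 and 9.84 TPM in pup 1, and Nuf2, its partner at the microtubule end, had 7.66 TPM in pup 2 and 12.6 TPM in pup 1. The inner subunits were higher: Spc24 had 13.4 TPM in pup 2 and 16.9 TPM in pup 1, and Spc25 had 25.9 TPM in pup 2 and 36.9 TPM in pup 1. Spc25 was thus at 3.94 times the TPM of Ndc80 in pup 2 and 3.75 times in pup 1. Knl1, the scaffold that receives checkpoint proteins, had 7.83 TPM in pup 2 and 12.6 TPM in pup 1. Of the large coiled-coil proteins of the outer kinetochore, Cenpf had 10.2 TPM in pup 2 and 17.3 TPM in pup 1, and Cenpe, a kinesin that carries chromosomes to the spindle equator, had 3.23 TPM in pup 2 and 4.71 TPM in pup 1.

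All 4 genes of the spindle checkpoint were at least 1.2-fold lower in pup 2. Mad2l1, MAD2, the protein that captures Cdc20, was the most abundant with 28.0 TPM in pup 2 and 41.2 TPM in pup 1. Bub1b, BubR1, which joins Mad2l1 in the complex that inhibits Cdc20, had 9.56 TPM in pup 2 and 12.1 TPM in pup 1. Bub1, the kinase that recruits it to kinetochores, had 4.42 TPM in pup 2 and 7.95 TPM in pup 1. The log2 ratios of these related genes lay apart, at -0.27 (-0.40 to -0.14) for Bub1b and -0.78 (-0.97 to -0.60) for Bub1, and Bub1b stood at 2.16 times the TPM of Bub1 in pup 2 and 1.52 times in pup 1. Ttk, the MPS1 kinase at the top of the checkpoint, had 3.24 TPM in pup 2 and 5.52 TPM in pup 1.

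The 3 genes of mitotic exit were among the most abundant of the list. Ube2c, the ubiquitin-conjugating enzyme of the anaphase-promoting complex, had 66.0 TPM in pup 2 and 89.9 TPM in pup 1. Pttg1, securin, which holds separase inactive until anaphase, had 58.0 TPM in pup 2 and 66.2 TPM in pup 1 and a log2 ratio of -0.07 (-0.20 to 0.05). Cdc20, the activator of the complex, had 34.6 TPM in pup 2 and 44.3 TPM in pup 1. Of the chromosome proteins, Top2a, topoisomerase II alpha, which untangles sister DNA, had 23.3 TPM in pup 2 and 37.1 TPM in pup 1. Mki67, the Ki-67 antigen that coats mitotic chromosomes and is widely stained as a proliferation marker, had 5.14 TPM in pup 2 and 7.89 TPM in pup 1. Both were at least 1.2-fold lower in pup 2.

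The transcript tables divided the RNA of these genes among 190 annotated transcripts. A single transcript is annotated for 12 genes, and up to 13 for Prc1. The leading transcript, the one with the largest share of the gene's TPM, was protein-coding in all 42 genes and held at least 90% of the gene in both pups in 22. Among the 30 genes with several transcripts it differed between the pups in 1, Pttg1, against 8.94% of 8981 protein-coding genes with several transcripts. In Pttg1 the transcript Pttg1-203 (700 nt) led in pup 2 with 47.0% of the gene, against 21.03% in pup 1, and Pttg1-202 (741 nt) held 36.8% in pup 2 and led in pup 1 with 49.2%. These and Pttg1-205 (12.6% in pup 2, 24.8% in pup 1) are nearly equal in length, and the split of reads among them is an estimate.

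In 4 genes at least 20% of the TPM was assigned in both pups to transcripts not annotated as protein-coding, as in 18.3% of all 12161 protein-coding genes tested. In Cdk1 the share was 44.4% in pup 2 and 32.1% in pup 1, carried mostly by Cdk1-204 and Cdk1-203, short retained-intron transcripts of 475 and 378 nt. In Cenpa it was 49.5% in pup 2 and 61.2% in pup 1, carried by transcripts annotated for nonsense-mediated decay, of which Cenpa-201 was at 0% in pup 2 and 23.0% in pup 1. Top2a had 44.1% in pup 2 and 39.5% in pup 1, and Cenpf had 30.6% in pup 2 and 44.9% in pup 1. Short transcripts weigh more in TPM than in reads. As a share of counts the same transcripts held 18.1% in pup 2 and 11.8% in pup 1 for Cdk1, 9.63% in pup 2 and 8.65% in pup 1 for Top2a, and 5.88% in pup 2 and 9.35% in pup 1 for Cenpf, while Cenpa stayed high at 45.4% in pup 2 and 55.7% in pup 1.

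**Figure D3:**
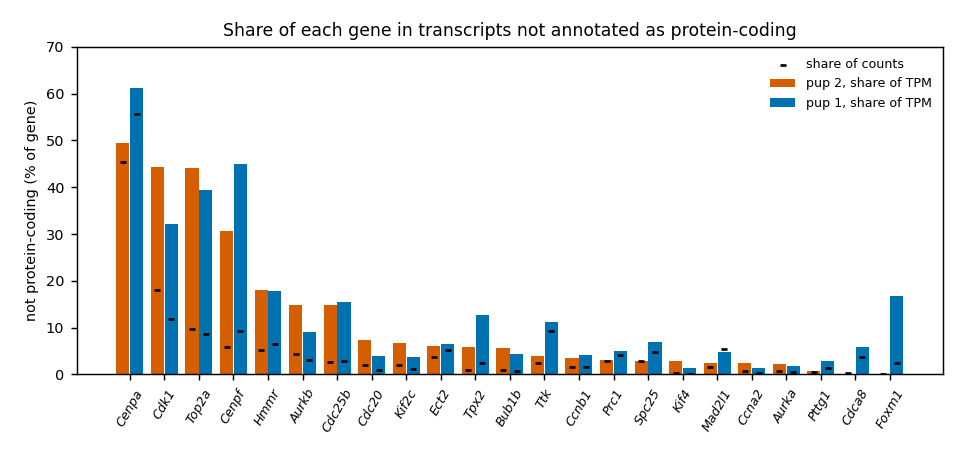
Share of each gene's TPM in transcripts not annotated as protein-coding, for the 23 genes where it reached 2% in a pup, with orange bars for pup 2 and blue bars for pup 1; the black dashes give the same share of expected counts. Cenpa, Cdk1, Top2a and Cenpf stand above 20% in both pups by TPM, and only Cenpa among these stays above 20% by counts.

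With TPM summed over protein-coding transcripts only, a measure added after the data were seen, Ube2c led the list and Cdk1 stood at rank 3 with 45.2 TPM in pup 2 and 72.6 TPM in pup 1. Cenpa moved to rank 12, with 24.0 TPM in pup 2 and 20.5 TPM in pup 1, so its protein-coding transcripts were slightly higher in pup 2 while the whole gene was not. The genes whose transcripts shifted by at least 10 percentage points, among those averaging 500 counts or more, were Cdk1, Cenpa, Cenpf, Ect2, Foxm1, Kif20a, Knl1 and Pttg1. How many of all genes shifted by as much was not counted, so these shifts are a description only. The leading coding transcript Cdk1-202 held 53.0% of Cdk1 in pup 2 and 63.7% in pup 1, and Cenpa-205 held 48.5% of Cenpa in pup 2 and 37.9% in pup 1. Cenpf-203 held 53.7% of its gene in pup 2 and 39.2% in pup 1, against Cenpf-201, a decay transcript of 609 nt, with 19.3% in pup 2 and 36.8% in pup 1. Of the others, Ect2-203 held 37.5% in pup 2 and 15.9% in pup 1, Ect2-207 was at 0% in pup 2 and 14.0% in pup 1, and Foxm1-201 held all of its gene's TPM in pup 2 and 83.3% in pup 1. As a share of counts, Foxm1 transcripts not annotated as protein-coding held 0% in pup 2 and 2.46% in pup 1. Kif20a-202 held 76.2% in pup 2 and 89.4% in pup 1, and Kif20a-201 held 23.8% in pup 2 and 10.6% in pup 1. Knl1-204 held 77.3% in pup 2 and 62.0% in pup 1, and Knl1-205 was at 0% in pup 2 and 15.1% in pup 1. The split depended on the estimate. By the authors' posterior mean shares, Ect2-207 held 13.42% in pup 2 and 16.4% in pup 1, and Knl1-205 11.61% and 16.74%. Shifts then fell under 10 percentage points for Ect2-203 (21.91% and 11.99%), Knl1-204 (67.72% and 60.67%), Kif20a-202 (76.86% and 82.19%) and Cenpa-205 (46.58% and 37.47%). Shifts stayed above 10 percentage points for Cdk1-202 (52.23% and 63.09%), Cenpf-203 (50.43% and 38.38%) and Foxm1-201 (89.54% and 78.34%). Ect2-202 passed 10 percentage points only by the posterior mean shares (26.48% and 43.14%, where the first estimate gave 49.55% and 57.0%).

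The difference between the pups was related to transcript length. Across the 42 genes, the log2 ratio and the log2 of the mean transcript length had a Pearson r of -0.41 and a Spearman rho of -0.44, and across all 12688 genes tested r was -0.16 and rho -0.23. The log2 ratio was also related to level within the list. With the log2 of mean TPM, r was 0.29 and rho 0.36 across the 42 genes, against -0.03 and -0.01 across all genes tested. Genes share libraries and are not independent, so these are descriptions. The 21 genes below the list's median length of 2736 nt had a median log2 ratio of -0.43, and the 21 above it -0.54, against 0.02 and -0.07 for all genes split at the same length. On each side the list's median lay below that of all genes, but 1 split does not match genes by length. The part of length in the difference was not tested. The genes closest to 0 are short: Pttg1 has a mean transcript length of 733 nt and Cenpa of 1199 nt, while Kif11 has 4819 nt, but Cdk1, at 979 nt, stood at -0.51.

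**Figure D4:**
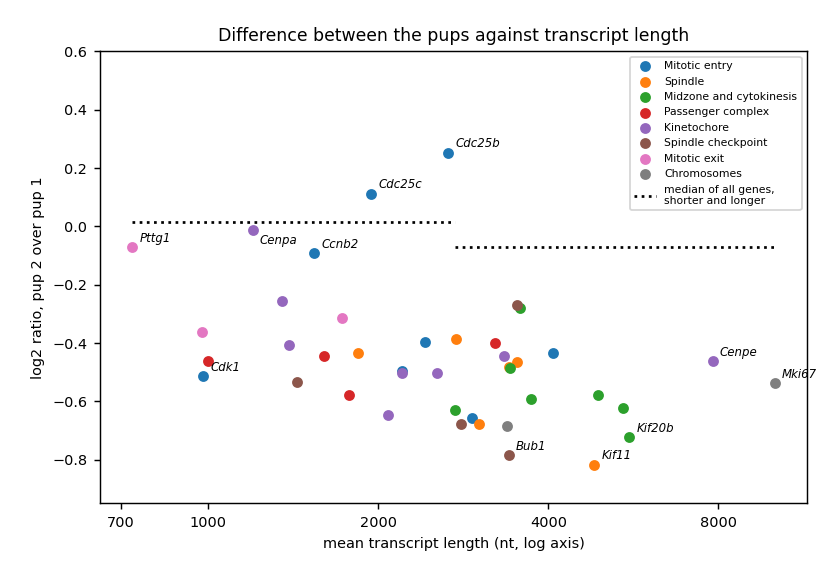
Log2 ratio of scaled counts, pup 2 over pup 1, against mean transcript length in nt on a log axis for the 42 genes, coloured by role. The dotted lines mark the median of all genes tested on either side of 2736 nt, at 0.02 for shorter and -0.07 for longer genes, and 40 of the 42 points lie below the line of their side.

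Other genes of the cell cycle, taken as lists of names, were also mostly lower in pup 2, but by less. Among all genes tested, 54.8% were lower in pup 2, 11.9% by at least 1.2-fold and 1.66% by at least 1.5-fold. Of 35 other kinetochore and centromere genes, 34 were lower in pup 2, 19 by at least 1.2-fold and 6 by at least 1.5-fold, with a median log2 ratio of -0.28. Kntc1, a subunit of the RZZ complex that brings dynein to kinetochores, had the largest difference with 1.08 TPM in pup 2 and 2.22 TPM in pup 1 and a log2 ratio of -0.96 (-1.21 to -0.70), whereas the abundant Zwint, Cenpx and Bub3 lay between -0.08 and 0.03. Of 25 other mitotic kinesin and spindle genes, 23 had enough counts, 22 were lower in pup 2 and 16 by at least 1.2-fold, with a median of -0.34. Ckap2l led with 7.35 TPM in pup 2 and 12.7 TPM in pup 1, and the abundant tubulin gene Tubb5 had 338 TPM in pup 2 and 432 TPM in pup 1, beside Stmn1 (-0.33), which destabilises microtubules, and Kpna2 (-0.39), an importin. Among 20 condensin, cohesin and separase genes, 17 were lower and 10 by at least 1.2-fold (median -0.28), with Smc2 and Smc4, the core of condensin, at log2 ratios of -0.54 and -0.40. Cdca5, sororin, was at -0.65 and the abundant Ncaph2 at 0.00.

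**Figure D5:**
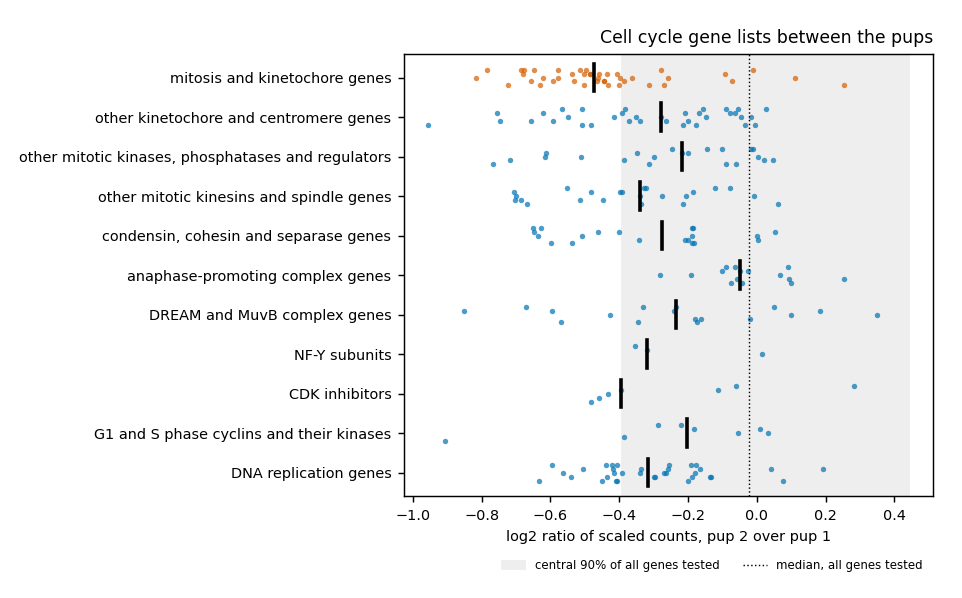
Log2 ratios of scaled counts, pup 2 over pup 1, for the mitosis and kinetochore genes (orange) and for other cell cycle lists (blue), each point a gene whose mean count reached 100 and each black bar the list's median. The grey band is the spread of single genes (the central 90% of all genes tested, from -0.39 to 0.44) and is no range for a list's median; the bars lie at -0.47 for the 42 genes and at -0.05 for the anaphase-promoting complex, beside -0.02 for all genes tested.

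The genes of the anaphase-promoting complex, which is needed outside mitosis too, differed least. Of 15 genes, 1 was at least 1.2-fold lower in pup 2, against 11.9% of all genes tested. This was Cdc27, with 18.6 TPM in pup 2 and 22.5 TPM in pup 1. Of the 15, 10 were lower in pup 2, not far from the 54.8% of all genes, and the list's median was -0.05. Its abundant subunit genes Anapc5, Anapc11 and Anapc13 had log2 ratios of -0.19, 0.07 and -0.06. The complex's E2 enzyme and activator in the list of 42, Ube2c and Cdc20, stood at -0.36 and -0.31. Among 21 other mitotic kinases, phosphatases and regulators, 18 were lower and 9 by at least 1.2-fold (median -0.22), led by Fbxo5, the inhibitor EMI1, with 7.71 TPM in pup 2 and 13.9 TPM in pup 1. The small Cdk1-binding proteins Cks1b and Cks2 had log2 ratios of -0.20 and -0.30, and the phosphatase inhibitor gene Arpp19 had -0.10.

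Of the factors that read the promoter motifs, the NF-Y subunit genes Nfya and Nfyb had log2 ratios of -0.35 and -0.32 and Nfyc 0.02, with 42.4 TPM in pup 2 and 45.9 TPM in pup 1 for Nfyc, the most abundant. The list of 17 DREAM and MuvB genes also holds E2F genes and Rb1 that are not subunits of these complexes. Of the 17, 13 were lower, against 54.8% of all genes tested, and 7 by at least 1.2-fold, against 11.9% (median -0.23). Those 7 include E2f1 (-0.33), E2f3 (-0.43), E2f7 (-0.67) and E2f8 (-0.59), which lie outside the complexes. Of the 4 higher in pup 2, 1 was at least 1.2-fold higher, the MuvB gene Lin37 at 0.35 (0.15 to 0.55). Mybl2, the B-Myb factor that joins MuvB in dividing cells, had 3.99 TPM in pup 2 and 6.91 TPM in pup 1 and a log2 ratio of -0.85, while Rbbp4, Tfdp1 and E2f4, which are also expressed outside division, had -0.16, -0.24 and -0.18. Among 34 DNA replication genes, 31 were lower, 20 by at least 1.2-fold and 2 by at least 1.5-fold (median -0.32). Pole, a DNA polymerase epsilon subunit, was at -0.63, and the abundant Pcna, Tyms and Mcm6 lay between -0.26 and -0.18.

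Of 8 G1 and S phase cyclins and kinases, 6 were lower and 3 by at least 1.2-fold (median -0.20), against 54.8% and 11.9% of all genes tested. Cyclin E2, Ccne2, had 9.86 TPM in pup 2 and 17.1 TPM in pup 1, a log2 ratio of -0.91. The abundant Cdk4 had 351 TPM in pup 2 and 379 TPM in pup 1, a log2 ratio of 0.01, and Ccnd3 and Ccnd2 stood at -0.05 and -0.18. CDK inhibitors did not go one way. Of the 7 with enough counts, 6 were lower in pup 2 (median -0.40), including Cdkn1c at -0.43, Cdkn2c at -0.48 and Cdkn2d at -0.06. Cdkn1a, the p21 inhibitor, was higher, with 110 TPM in pup 2 and 95.8 TPM in pup 1 and a log2 ratio of 0.28 (0.20 to 0.36).

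Markers of other cells differed between the bladders as well. Erythroid markers, 9 of 10 of which were matched, summed to 59108 TPM in pup 2 and 21724 TPM in pup 1, and all 6 with enough counts were higher in pup 2. The 10 macrophage markers summed to 1955 TPM in pup 2 and 607 TPM in pup 1 and all were higher in pup 2, and the 7 neutrophil markers summed to 378 TPM in pup 2 and 37.6 TPM in pup 1, with both genes that had enough counts higher in pup 2. The 7 liver markers summed to 20.2 TPM in pup 2 and 75.0 TPM in pup 1, with all 6 that had enough counts lower in pup 2. The 10 skeletal muscle markers summed to 8056 TPM in pup 2 and 9053 TPM in pup 1, with all 6 that had enough counts lower in pup 2. Acta1 alone made up 6667.5 TPM in pup 2 and 7282.8 TPM in pup 1. The median log2 ratio of these 6 was -0.36. Ckm had 600 TPM in pup 2 and 656 in pup 1, Tnnt3 429 and 667, and Tnnc2 334 and 396. Myh8 had 15.9 TPM in pup 2 and 26.5 in pup 1, and Myh2 7.79 and 18.9. Mylpf had 1.64 TPM in pup 2 and 2.42 in pup 1, Myl1 0.86 and 2.72, and Myh3 0.05 and 0.16. The myogenic factor Myog was listed at 0 in both. Among the main bladder lists, median log2 ratios were -0.04 for smooth muscle, 0.04 for superficial and 0.12 for basal urothelium, -0.12 for 6 fibroblast genes and -0.01 for 6 endothelial genes. The fibroblast genes summed to 8694 TPM in pup 2 and 10031 TPM in pup 1, and the endothelial genes to 130 TPM in pup 2 and 115 TPM in pup 1. The endothelial genes went both ways, with Cldn5 at 0.45, Egfl7 at 0.49 and Tek at -0.24, and 2 of 6 were at least 1.2-fold higher in pup 2. Of the fibroblast genes, 5 of 6 were lower in pup 2, and Pdgfra was at 0.27. Mesothelial genes (5, summing to 377 TPM in pup 2 and 397 TPM in pup 1) and Schwann cell and neuron genes (8, summing to 223 TPM in pup 2 and 249 TPM in pup 1) had medians of -0.13 and 0.05. The part of these cell populations in the difference of the mitotic genes was not tested. Leaving the globin genes out of the scaling left the median of the 42 genes at -0.47. TMM trims genes with extreme ratios, so this step could hardly change the median and says nothing about the part of blood cells.

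Of the 42 genes, 13 overlap a gene on the opposite strand and 6 a gene on the same strand, and whether the authors counted reads by strand is not given in the sources used here. Some reads may thus belong to a partner, in particular for Ube2c, which overlaps Tnnc2 (365 TPM on average), and Cdc20, which overlaps Elovl1 (174 TPM). Kif4 overlaps Pdzd11 (67.3 TPM), Kif20a overlaps Cdc23 (40.0 TPM) and Ccna2 overlaps Exosc9 (32.8 TPM).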

How the data were processed

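Bladder total RNA of 2 newborn littermates was measured, each pup in a library of its own. Extraction followed the mirVana method with a size range above 200 nt, per the labels. Gene and transcript tables were deposited by the authors on mm10, and the listings that come with the samples name GENCODE M4. The aligner, the estimator version and the strand setting were not given in the sources used here. Expected counts were deposited as the authors' estimates of reads, with no normalisation. TPM was deposited per length and to a fixed total that includes spike-ins, and FPKM was deposited per kilobase of effective length and library size. Each transcript's share was deposited as a percent of its gene's TPM. The deposited posterior SD and lengths were used as given.

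Identifiers were matched without versions to GENCODE M21 (42462 of 43346 mouse genes). Expected counts, rounded for the factors, were scaled with TMM (edgeR 4.0.16 in R 4.3.3). Log2 ratios used genes averaging 100 counts or more, with exact Clopper-Pearson intervals at 95%, which cover counting error only since PCR copies are not told apart. Libraries held 32564563 (pup 2) and 43653931 (pup 1) expected counts. With 1 library per animal there are no residual degrees of freedom, so genes were called by folds of 1.2 and 1.5, with no test. The ratio step was tested on simulated data. Promoter motifs were counted in the RefSeq table of GRCm38.p6, the first entry where a gene had 2. Alternatives changed the scaling, the unit, the low-count filter, the library and the transcripts used.

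The members and the lists were chosen with earlier results of these data known. All 42 members are named. Of each other cell cycle list the 3 genes with the highest mean TPM and the 1 with the largest difference are named. Of the DREAM and MuvB list, Lin37, E2f1, E2f3, E2f7 and E2f8 are named besides. Transcripts are named where the leading one differed or a share shifted by at least 10 percentage points, and 4 promoters are printed. A planned description of the proteins is not used here. Computation used Python 3.11.15, numpy 2.4.6, pandas 2.3.3, scipy 1.17.1 and matplotlib 3.10.9.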

Additional observations from a re-analysis of the deposited data

How the results depend on the processing

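The 42 genes kept a median log2 ratio between -0.57 and -0.46 under every scaling, unit and count filter tried, with 37 to 40 of them lower in pup 2 and 33 to 37 at least 1.2-fold lower, where the strictest count filter kept 38 genes. The number at least 1.5-fold lower was 11 with TMM-scaled counts, 10 with total or upper quartile scaling, 10 among the genes that passed the strictest filter, 11 under the other count settings, 15 with ratios of TPM plus 1, 18 with ratios of TPM and 17 with the TPM of protein-coding transcripts only, the last chosen after seeing the data. Among all genes, 2.97% were at least 1.5-fold lower by TPM and 1.66% by scaled counts. Ratios of TPM put the median of all genes at -0.10, with 67.4% lower in pup 2 against 54.8% by scaled counts, and the median of the 42 genes then lay 0.47 below that of all genes, against 0.45 with TMM-scaled counts. The other count scalings shift every gene by the same amount, so that gap cannot differ among them. With ratios of TPM, 7 genes left their counting interval, among them Cenpf at -0.77 and Foxm1 at -0.74. The sign of Cenpa turned to 0.23 with protein-coding transcripts only, and no gene that was at least 1.2-fold apart turned. The median level of 13.8 TPM became 9.76 in FPKM, a unit with another total, 10.98 TPM without replicate 1 and 16.6 TPM without replicate 2. At a threshold of 5 TPM, 37 genes were detected in both pups. No paired analysis was possible because there is 1 group. With 2 libraries, no spread between animals can be estimated beyond the gap between these pups, and the counting intervals do not cover it.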
